A study of Mus musculus with 3 samples.

Results

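Cell division in the embryonic heart was followed through 53 genes of the cell cycle and of DNA replication, chosen by name. The products of 24 act before or during DNA synthesis (here the G1/S genes), those of 27 act in the second gap phase or in mitosis (the G2/M genes), and 2 are inhibitors of cyclin-dependent kinases (CDKs). Every gene probe that carries a member's name was taken, with Cdk1 accepted under its older name Cdc2a. This gave 86 of the 41174 gene probes and 53 of the 28149 gene names on the array. All 53 genes had at least 1 probe bright enough to be tested, 79 probes in all, and 77 of these were well above background in both colours on all 3 arrays. The phase of a gene was assigned from general knowledge, and 11 of the genes have a less certain phase.

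Hearts were taken at embryonic day 15.5 from C57BL/6 litters of Lrrc10+/- parents, and gene expression in littermates labelled as lacking both copies of Lrrc10, a gene of heart muscle, was set against that of Lrrc10+/+ littermates. Each of the 3 arrays carried 1 pool of RNA from 2 hearts labelled Lrrc10-/-, in the red dye Cy5, and 1 pool of wild-type RNA in the green dye Cy3. The dyes were never exchanged, so genotype and dye cannot be told apart. Whole hearts were used, so all cell types of the heart are mixed, and for every gene below fewer cells that express it and less RNA per cell cannot be told apart.

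Lrrc10 itself was read first, as a check of the labels. Its log2 ratios of Cy5 over Cy3 were 3.99, 4.78 and 4.45 on the 3 arrays, so the gene was brighter in the channel labelled Lrrc10-/- on every array. The targeted gene goes against the labels. A positive log2 ratio below therefore means only more signal in Cy5, the dye of the pool labelled Lrrc10-/-. The processed signal of the Lrrc10 probe was 6294, 8521 and 12637 in Cy5, against 281, 237 and 200 in Cy3. Whether this probe lies in the deleted part of the gene was not tested, nor whether the labels were exchanged. The wild-type channel also carries a label entry with an adult age, and the embryonic age was taken.

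Progress through the cell cycle is driven by CDKs, which are active only when bound to a cyclin and are held in check by inhibitors such as the products of Cdkn1a (p21) and Cdkn1b (p27). D-type and E-type cyclins release the E2F transcription factors, whose targets license replication origins, supply nucleotides and copy the DNA. Genes for mitosis are switched on later, when the repression of their promoters ends, and heart muscle cells of the fetus still divide before they leave the cycle after birth.

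The 2 waves are written partly into the promoters. RefSeq promoters (build GRCm38.p6) were on hand for 43 of the 53 genes, and the 250 bases before each start were searched on both strands for 3 sets of letters. These were the cell cycle genes homology region or CHR (its letters are TTTGAA, and in a second form they are TTTAAA), the CCAAT box, and E2F-type sites. For the last the letters TTCCCGC were searched, then the form with the letters TTCGCGC, then that with the letters TTGGCGC, and last that with the letters TTGCCGC, and such a match can overlap a CCAAT box. The sequences below belong to members on which the results turn: Mcm6 and Rrm2 for G1/S, Cdc20, Plk1 and Cenpf for G2/M, and the inhibitor Cdkn1b. Each is written 5′ to 3′ and ends at the base before the start, and capitals mark all letters of any of the 3 sets.
Mcm6 (chr1:128359706-128359955, - strand): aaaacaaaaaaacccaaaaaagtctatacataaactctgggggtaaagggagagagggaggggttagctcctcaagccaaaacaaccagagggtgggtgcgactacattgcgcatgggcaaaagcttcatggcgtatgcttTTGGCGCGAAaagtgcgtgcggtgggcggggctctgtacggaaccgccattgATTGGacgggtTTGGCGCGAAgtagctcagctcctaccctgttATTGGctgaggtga
Rrm2 (chr12:24708004-24708253, + strand): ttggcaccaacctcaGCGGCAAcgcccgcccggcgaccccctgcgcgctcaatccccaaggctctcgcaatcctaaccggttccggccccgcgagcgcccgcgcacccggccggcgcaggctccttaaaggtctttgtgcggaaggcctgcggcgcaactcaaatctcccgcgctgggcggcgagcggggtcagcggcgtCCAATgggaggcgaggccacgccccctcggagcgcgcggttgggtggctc
Cdc20 (chr4:118437344-118437593, - strand): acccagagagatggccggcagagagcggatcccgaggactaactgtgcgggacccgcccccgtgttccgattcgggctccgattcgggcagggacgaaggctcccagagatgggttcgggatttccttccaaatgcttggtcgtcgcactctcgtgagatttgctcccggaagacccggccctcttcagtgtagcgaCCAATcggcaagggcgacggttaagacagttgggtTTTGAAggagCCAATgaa
Plk1 (chr7:122159185-122159434, + strand): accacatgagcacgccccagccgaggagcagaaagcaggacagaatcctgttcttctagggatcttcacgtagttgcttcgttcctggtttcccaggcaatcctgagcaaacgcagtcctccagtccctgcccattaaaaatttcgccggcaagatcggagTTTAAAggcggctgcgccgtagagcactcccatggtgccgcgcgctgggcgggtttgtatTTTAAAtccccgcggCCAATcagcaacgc
Cenpf (chr1:189688087-189688336, - strand): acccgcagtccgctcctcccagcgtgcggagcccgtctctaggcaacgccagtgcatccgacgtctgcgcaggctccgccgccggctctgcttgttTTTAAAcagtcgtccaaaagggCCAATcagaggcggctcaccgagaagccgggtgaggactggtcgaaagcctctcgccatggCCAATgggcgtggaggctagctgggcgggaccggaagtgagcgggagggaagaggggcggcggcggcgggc
Cdkn1b (chr6:134920151-134920400, + strand): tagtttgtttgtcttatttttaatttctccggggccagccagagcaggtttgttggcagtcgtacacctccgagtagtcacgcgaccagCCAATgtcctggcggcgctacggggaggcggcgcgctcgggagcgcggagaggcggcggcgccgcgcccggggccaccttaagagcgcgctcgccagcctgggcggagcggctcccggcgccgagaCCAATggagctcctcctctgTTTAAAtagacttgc

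Mcm6 and Rrm2 held E2F-type letters and no CHR letters, whereas Cdc20, Plk1 and Cenpf held CHR letters and no E2F-type letters. Cdkn1b held CHR letters 9 bases before its start. CHR letters occurred in 13 of 22 G2/M promoters (59.1%) and in 5 of 19 G1/S promoters (26.3%), beside 22.0% of the 10865 genes tested on the arrays with a promoter of the same length. A CCAAT box stood in 19 of 22 G2/M genes (86.4%), in 12 of 19 G1/S genes (63.2%) and in 39.8% of the tested genes. Both together were found in 12 G2/M genes (54.5%), 3 G1/S genes (15.8%) and 8.28% of the tested genes. E2F-type letters ran the other way, with 8 of 19 G1/S genes (42.1%), 3 of 22 G2/M genes (13.6%) and 14.8% of the tested genes. These matches describe letters, not bound sites. On the arrays, the 13 G2/M genes with CHR letters had median log2 ratios of 0.10, 0.070 and -0.19 on replicates 1, 2 and 3, and the 9 without them had 0.013, 0.035 and -0.11. The sets thus lay close to each other on every array.

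**Figure D1:**
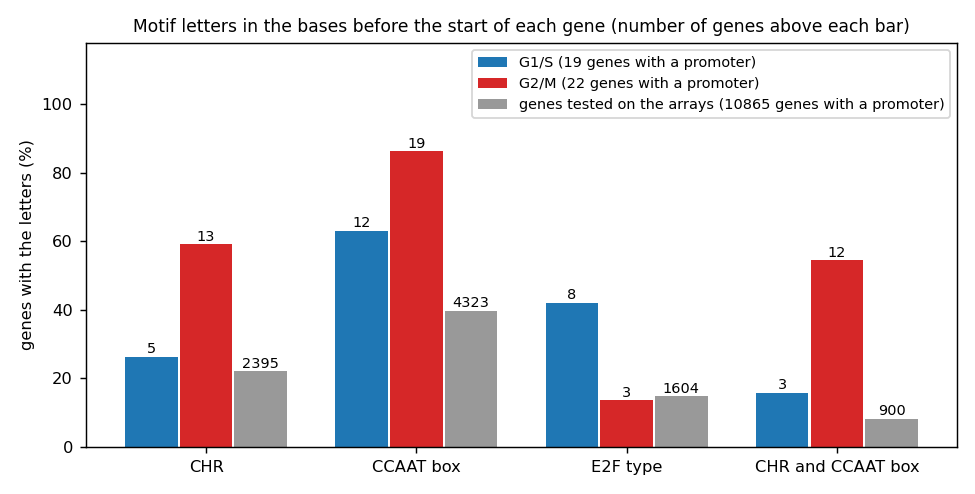
Share of genes (percent, bars from 0) whose 250 bases before the start hold the letters named below each group of bars, for G1/S genes, G2/M genes and all genes tested on the arrays, with the number of genes above each bar. CHR letters were found in 59.1% of the G2/M genes and 26.3% of the G1/S genes, and E2F-type letters in 13.6% and 42.1%.

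None of the 53 genes passed the test in either direction. With limma over all probes of the array, 0 members were higher and 0 lower in Cy5 at an adjusted p under 0.05, beside 1.8% of the 19267 tested genes called higher and 0.00519% called lower. Before adjustment, 2 members had a p under 0.05 and a higher Cy5 signal (Cdc20 and Cdkn1b, 3.77% of 53), beside 10.6% of all tested genes. In the other direction there were 6 members (Mki67, Cdc25b, Mcm6, Prc1, Ube2c and Cdt1, 11.3%), beside 4.15% of all tested genes. By the 1.2-fold rule on the scanner software's own ratios, 0 members were higher on all 3 arrays and 0 lower, beside 4.28% and 1.3% of all genes. These counts do not show that the genes are unchanged: the 95% limma interval of a member's mean log2 ratio reached 0.26 (Mcm3) to 0.66 (Cenpe) to either side, with a median of 0.29. These intervals are those of the brightest probes, and none of them reached a log2 change of 1 in either direction. Intervals of other probes are not given.

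**Figure D2:**
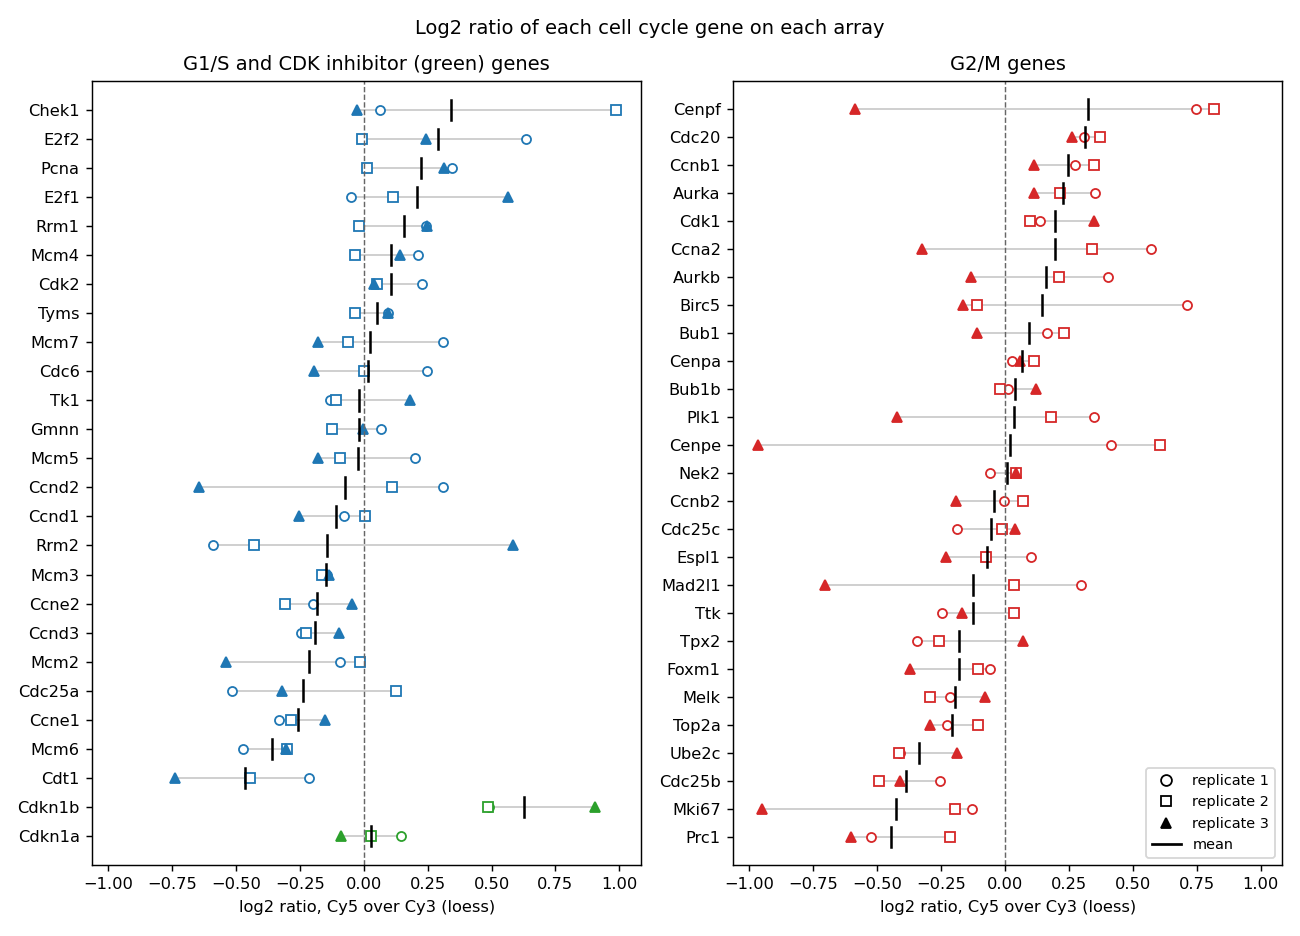
Log2 ratio of Cy5 (labelled Lrrc10-/-) over Cy3 (labelled wild type) after loess for each of the 53 genes, read by its brightest tested probe, with 1 symbol per array and a black bar at the mean of the 3 arrays. Cdkn1b, at 0.49, 0.49 and 0.91, lies farthest above 0, and the filled triangles of replicate 3 lie far left of the other symbols for Cenpe, Cenpf, Mad2l1 and Mki67.

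G1/S and G2/M genes did not separate. The median log2 ratio of the 27 G2/M genes was 0.028, 0.035 and -0.17 on replicates 1, 2 and 3, and that of the 24 G1/S genes was 0.0053, -0.034 and -0.071. All tested genes had medians of 0.020, 0.040 and 0.016. The G2/M median was therefore above the G1/S median by 0.023 and 0.069 on replicates 1 and 2 and below it, at -0.097, on replicate 3. Over the 3 arrays the difference averaged -0.0017 ± 0.085 (SD, n = 3), so the sign of the difference depended on the array. An exact sign-flip test over 3 arrays cannot go below p = 0.25, and no test of the classes was made. The software's own log ratios gave the same order of signs, with differences of 0.041, 0.14 and -0.14, but placed both classes lower: G1/S at -0.024, -0.15 and -0.16, and G2/M at 0.017, -0.011 and -0.30, beside -0.029, 0.0021 and -0.015 for all genes. Both classes thus lay below the median of all genes on replicate 3 on either scale.

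**Figure D3:**
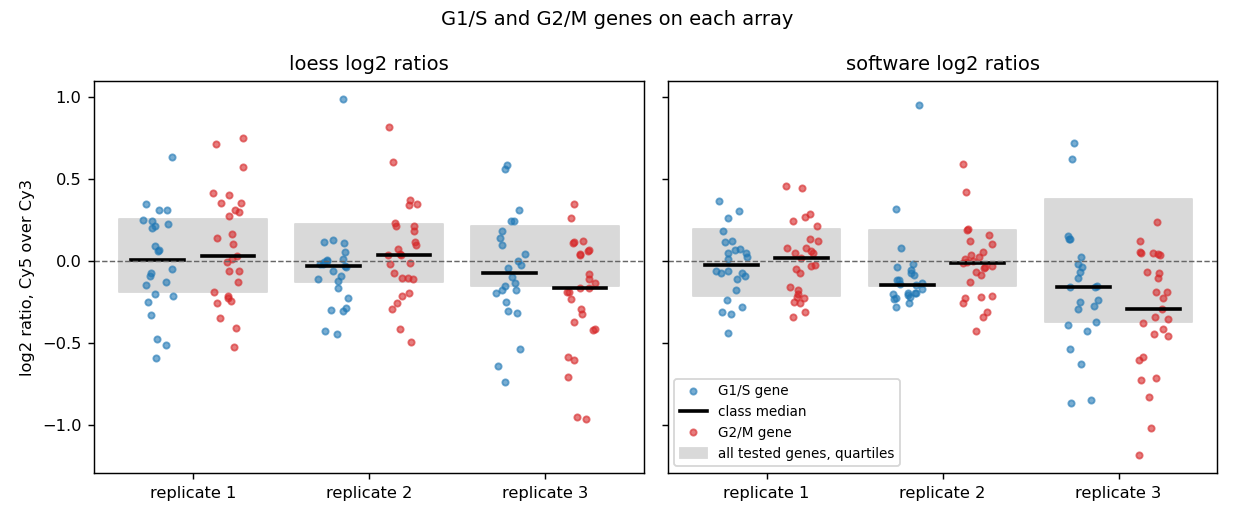
Log2 ratios of the 24 G1/S genes (blue) and the 27 G2/M genes (red) on each array after loess (left) and as the scanner software gave them (right), with black bars at the class medians and grey bands between the quartiles of all tested genes. On replicate 3 the G2/M median stands at -0.17 on the left and -0.30 on the right.

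In processed signal, the brightness of a spot after the software's background and dye correction, both classes were well measured. On replicates 1, 2 and 3 the median G1/S gene read 6386, 6164 and 11654 in Cy5, against 7179, 7167 and 10426 in Cy3. The median G2/M gene read 4523, 4003 and 7284 in Cy5, against 5112, 4428 and 7426 in Cy3. All 24 G1/S and all 27 G2/M genes were well above background in both channels on all arrays. A probe's brightness depends on its sequence, so the signals of the classes are not set against each other. Gmnn and Birc5 reached saturation in both channels, each on at least 1 array, and no fold is given for them.

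The 5 cyclins among the G1/S genes had means below 0 by their brightest probes, but other probes of Ccnd2 (0.18 and 0.61) and of Ccne2 (0.18) had means above 0, and the Ccnd2 mean turned above 0 in 4 of the 16 alternatives. The D-type cyclins, which answer growth signals, had mean log2 ratios of -0.074 (Ccnd2, at 0.31, 0.11 and -0.64), -0.11 (Ccnd1) and -0.19 (Ccnd3). Ccnd1 was at -0.076, 0.0038 and -0.25 on the 3 arrays. Ccne1 is an E-type cyclin that activates CDK2 at the start of S phase. Its brightest probe was lower on all arrays, at -0.33, -0.29 and -0.15 (mean -0.26 ± 0.093, SD, n = 3; limma adjusted p of 0.401). A second, dimmer Ccne1 probe read -0.38, -0.072 and 0.25 (mean -0.065). The brightest probe of Ccne2 averaged -0.18. Cdk2 was at 0.23, 0.052 and 0.041 with its brightest probe and Cdc25a, a phosphatase that activates it, at -0.51, 0.12 and -0.32. The software's ratios placed Cdk2 below 0 instead, at -0.28, -0.23 and -0.37. None of these genes passed the test.

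Origin licensing puts the MCM helicase onto DNA through the loaders Cdc6 and Cdt1. Cdt1, the loader that is destroyed once S phase begins, was at -0.22, -0.45 and -0.74 on replicates 1, 2 and 3, a mean of -0.47 ± 0.26 (SD, n = 3), with a limma adjusted p of 0.215. The processed signal of Cdt1 was 13805, 15826 and 26773 in Cy5, against 14409, 19246 and 48785 in Cy3, so the gap between channels was widest on replicate 3. Mcm6, a subunit of the helicase, was at -0.47, -0.30 and -0.31 (mean -0.36 ± 0.099, SD, n = 3; limma adjusted p of 0.254), and it was saturated in Cy3 on 1 array, where the ratio is not exact. Both genes were lower in Cy5 on all arrays without passing the test. The other MCM genes ranged from a mean of 0.11 (Mcm4, at 0.21, -0.033 and 0.14) to -0.22 (Mcm2), with Mcm3 at -0.14, -0.16 and -0.14 and Mcm5 and Mcm7 near 0 at -0.023 and 0.023. Of the 9 licensing genes, Gmnn (geminin, the inhibitor of Cdt1) included, 8 were below 0 on replicate 2 and 8 on replicate 3, but 4 on replicate 1. The median of all tested genes was above 0 on each array, at 0.020, 0.040 and 0.016 on replicates 1, 2 and 3. No test of this small group was made.

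Of the genes that supply nucleotides and copy DNA, 3 of 5 were above 0 on replicate 1, 1 of 5 on replicate 2 and 5 of 5 on replicate 3. On replicate 3, 52.6% of all tested genes were above 0. With the software's ratios 4 of 5 were above 0 there, beside 48.9% of all tested genes. Pcna, the sliding clamp of the DNA polymerases, was at 0.35, 0.013 and 0.31 (mean 0.22 ± 0.18, SD, n = 3; limma adjusted p of 0.494), and it was saturated in Cy5 on 1 array, where the ratio is not exact. Rrm1 and Rrm2 encode the large and the small subunit of ribonucleotide reductase, the enzyme that makes deoxynucleotides. Rrm1 was at 0.24, -0.019 and 0.25, and Rrm2 at -0.59, -0.43 and 0.58, so the ratio of Rrm2 was below that of Rrm1 on replicates 1 and 2 and above it on replicate 3. Without replicate 3, Rrm2 was called lower, at -0.51 with a limma adjusted p of 0.044. Tyms and Tk1, which make thymidine nucleotides, had means of 0.051 and -0.020. The factors E2f1 (-0.052, 0.11 and 0.56) and E2f2 (0.63, -0.0056 and 0.24) averaged 0.21 and 0.29, but a second E2f1 probe averaged -0.089. Chek1, the kinase of the replication checkpoint, had the highest G1/S mean (0.34 ± 0.56, SD, n = 3), which rested on replicate 2, since its values were 0.063, 0.99 and -0.027. The other probe of Chek1 read 0.19 on that array.

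Read by their brightest probes, 5 of the 27 G2/M genes were above 0 on all 3 arrays. For Ccnb1 and Cdk1 this held for the brightest probe alone, and another probe of each had a mean below 0 (-0.097 and -0.14). Ccnb1, the cyclin that starts mitosis, was at 0.27, 0.35 and 0.11 (mean 0.24 ± 0.12, SD, n = 3; limma adjusted p of 0.429) and Cdk1, the kinase it binds, at 0.14, 0.099 and 0.35 (mean 0.20 ± 0.13, SD, n = 3; limma adjusted p of 0.528). Cdc20, which directs the anaphase-promoting complex to its targets, was at 0.31, 0.37 and 0.26, a mean of 0.31 ± 0.054 (SD, n = 3), with an unadjusted p of 0.027 and a limma adjusted p of 0.301. Aurka, a kinase of the centrosome, was at 0.35, 0.21 and 0.12 (mean 0.23), and Cenpa, the histone of the centromere, averaged 0.067. The share above 0 on all arrays was 8 of all 53 members (15.1%), beside 21.6% of all tested genes, so it was no larger than among genes in general. With the software's ratios, Cdc20 and Ccnb1 stayed above 0 on all arrays, but Cdk1 was below 0 on replicates 1 and 2 and Aurka and Cenpa on replicate 3.

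Read by their brightest probes, 7 G2/M genes and 7 G1/S genes were below 0 on all 3 arrays, 26.4% of the 53 members beside 16.1% of all tested genes. Prc1, which bundles the microtubules of the central spindle, was the lowest of the G2/M class at -0.53, -0.22 and -0.60 (mean -0.45 ± 0.20, SD, n = 3; limma adjusted p of 0.203). The brightest probe of Cdc25b, a phosphatase that activates CDK1, was at -0.25, -0.49 and -0.41 (mean -0.39, limma adjusted p of 0.232). A dimmer Cdc25b probe was above 0 on replicates 1 and 2, at 0.047, 0.021 and -0.22 (mean -0.051). The dimmest tested Cdc25b probe was below 0 on all arrays (mean -0.19). Ube2c, an enzyme of the anaphase-promoting pathway, was at -0.41, -0.42 and -0.19 (mean -0.34, limma adjusted p of 0.289). Mki67, the gene of the proliferation marker Ki-67, was at -0.13, -0.20 and -0.95 (mean -0.43 ± 0.46, SD, n = 3; limma adjusted p of 0.365), so most of its mean came from replicate 3. There its processed signal was 12874 in Cy5 against 26093 in Cy3. On replicate 1 the channels were close (22844 against 21897), and also on replicate 2 (20038 against 20661). Top2a, the topoisomerase that untangles chromosomes, was at -0.23, -0.10 and -0.29, and Foxm1, a transcription factor of mitotic genes, averaged -0.18. With the software's ratios of the brightest probes, Cdc25b, Ube2c, Top2a, Prc1 and Melk were below 0 on every array. Mki67 and Foxm1 were above 0 on replicate 1 instead, at 0.061 and 0.017. Of the 7 G1/S genes, Ccne2 and Mcm3 were also above 0 on replicate 1 with these ratios, at 0.075 and 0.023. No G2/M gene passed the threshold on either side.

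Another set stood on both sides of 0. Above 0 on replicates 1 and 2 and below 0 on replicate 3 were 7 of 27 G2/M genes (25.9%) and 11 of 53 members (20.8%), beside 15.6% of all tested genes. Cenpe and Cenpf had the widest spread of all members. Cenpe, a motor that carries chromosomes to the spindle equator, was at 0.42, 0.60 and -0.97, and Cenpf, a large protein of the outer kinetochore, at 0.75, 0.82 and -0.59. Cenpe read 25813, 35540 and 24075 of processed signal in Cy5, against 21475, 26573 and 54702 in Cy3, so Cy5 was the brighter channel on replicates 1 and 2 and Cy3 on replicate 3. Ccna2 (cyclin A2) was at 0.57, 0.34 and -0.32, Plk1 (polo-like kinase 1) at 0.35, 0.18 and -0.42, and Mad2l1 (a spindle checkpoint protein) at 0.30, 0.035 and -0.71. The means of these 5 genes ran from -0.12 (Mad2l1) to 0.33 (Cenpf), with arrays on both sides of 0 for each. Without replicate 3, Cenpf was called higher at 0.78 (limma adjusted p of 0.00238) and Cenpe at 0.51 (limma adjusted p of 0.0444), and these with Rrm2 were the only members called under any of the 16 alternatives run, each gene read by its brightest probe. The share of all tested genes called without replicate 3 is not given here, so these calls are not set against it.

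Replicate 3 was the array with the lowest ratio for 17 of 27 G2/M genes (63.0%), for 9 of 24 G1/S genes (37.5%) and for 35.8% of all tested genes. Taken as replicate 3 minus the mean of replicates 1 and 2, a difference chosen after the values were seen, the G2/M genes had a median of -0.20, with 20 of 27 below 0. The G1/S genes had a median of 0.022, with 11 of 24 below 0, and all tested genes one of 0.0072. The gap between the classes depended on the scale. After base content correction the medians were -0.16 for G2/M and 0.062 for G1/S. With the software's ratios the medians were -0.19 for G2/M and -0.15 for G1/S beside 0.017 for all genes, and with median centring -0.28 and -0.15 beside -0.058, so on those scales both classes lay below all genes. No test was made of this shift, which was found on these arrays. Replicate 3 also had the fewest spots well above background, 63.9% in Cy5 and 69.3% in Cy3, and it shared scanner model and software version with replicate 2. Their part in the shift was not tested.

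**Figure D4:**
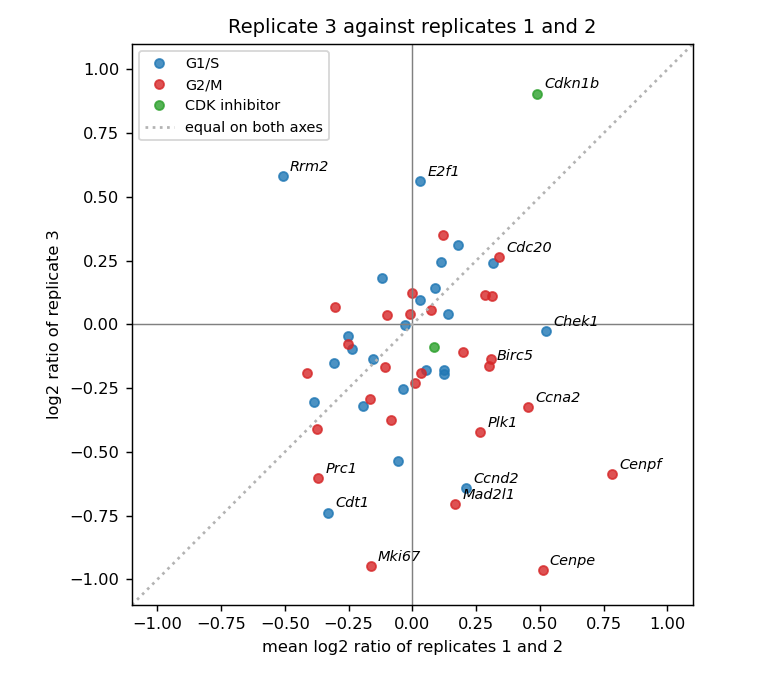
Log2 ratio of Cy5 over Cy3 on replicate 3 against the mean of replicates 1 and 2 for the 53 genes, coloured by class, with a dotted line where both are equal and with selected genes named. Cenpe, Cenpf, Ccna2, Plk1 and Mad2l1 lie at the lower right (above 0 on replicates 1 and 2, below 0 on replicate 3), Rrm2 lies at the upper left and Cdkn1b is high on both axes.

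Markers of other cell types also varied from array to array, and their part in the values above was not tested. The 7 epicardial genes (Wt1 and Upk3b among them) had median log2 ratios of -0.18, -0.17 and 0.33, with 1, 1 and 5 above 0, and their summed signals in Cy5 were 0.791, 0.780 and 1.12 times those in Cy3. The 5 tested hepatic genes had medians of 0.71, -1.35 and 0.078, and on replicate 2 Afp was at -5.15 and Alb at -2.74, with summed Cy5 signals 1.68, 0.0911 and 1.37 times those in Cy3. The 10 endothelial genes had medians of 0.030, 0.085 and -0.15 and the 9 fibroblast and mesenchyme genes -0.049, -0.030 and -0.023. The 9 tested erythroid genes were at -0.018, -0.40 and -0.16 and the 8 macrophage genes at 0.12, -0.26 and 0.013. The 12 cardiomyocyte genes, those of the labelled tissue, had medians of -0.19, -0.12 and -0.16 and summed Cy5 signals 0.787, 0.901 and 0.790 times those in Cy3, with 1 of 12 means above 0 and 8 genes at saturation. Tnnt2, Myl2 and Myl3 each read -0.33, -0.12 and -0.16, and so did the erythroid gene Hbb-b1. The cardiomyocyte medians on replicates 2 and 3 match this shared reading. With so many genes at saturation, these medians, sums and signs are not exact.

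The inhibitors gave different values. Cdkn1b was the member with the highest mean and the lowest p, at 0.49, 0.49 and 0.91 on replicates 1, 2 and 3 (mean 0.63 ± 0.24, SD, n = 3), with an unadjusted p of 0.0020 and a limma adjusted p of 0.0944. This probe lies on chromosome 6 at 134875215 to 134875274 (mm9, the build of the files), and in Cy5 it read 3798, 1961 and 7462 of processed signal, against 3632, 1650 and 3963 in Cy3. The software's own ratios for it were smaller on replicates 1 and 2, at 0.065, 0.25 and 0.91. A second, dimmer Cdkn1b probe, which was printed at 10 spots on each array, read 0.040, 0.094 and -0.044 (mean 0.030). The higher value of Cdkn1b thus held for 1 of its 2 tested probes. Cdkn1a, induced by p53 after DNA damage, was at 0.14, 0.028 and -0.089 (mean 0.028 ± 0.12, SD, n = 3; limma adjusted p of 0.945).

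Probes of the same gene give a check within an array, and 21 members had 2 or more tested probes. The brightest and the second probe had the same sign on all 3 arrays for 6 of 21 (28.6%), beside 21.6% of 6363 genes, and were lowest on the same array for 12 of 21 (57.1%), beside 46.8%. For 8 of the 21 genes, Ccnd2 among them, probes had means of opposite sign. The array pattern was shared by the probes of some of the genes with the widest spread. All 3 probes of Cenpe were above 0 on replicates 1 and 2 and below 0 on replicate 3, where they read -0.97, -0.34 and -0.37. Both Mki67 probes were low on replicate 3, at -0.95 and -1.03, and both Mad2l1 probes, at -0.71 and -0.41. Cenpf was different, since its second, dim probe stood at -0.035, 0.24 and -0.12 where the bright one had 0.75, 0.82 and -0.59. The 3 Ccnd2 probes disagreed in level, with means of -0.074, 0.18 and 0.61, but each was highest on replicate 1 and lowest on replicate 3. The third of them read 1.37, 0.44 and 0.0038, and without replicate 3 it was higher by 0.91 with a limma adjusted p of 0.0048. The other 7 genes with probes on both sides of 0 were Top2a (-0.21 and 0.21), Cdk2 (0.11 and -0.26), Ccne2 (-0.18 and 0.18), Ccnb1 (0.24, 0.13 and -0.097), Cdk1 (0.20 and -0.14), E2f1 (0.21 and -0.089) and Cdc6 (0.018 and -0.14). No direction can be given for these 8 genes as such. Both Mcm3 probes were below 0 on all arrays, and the second read -0.61, -0.55 and -0.072, with -0.58 and a limma adjusted p of 0.0212 without replicate 3. Neither this probe nor the third Ccnd2 probe is the brightest of its gene. The share of all tested probes called without replicate 3 is not given here, so the values of these probes without it are not set against that share.

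**Figure D5:**
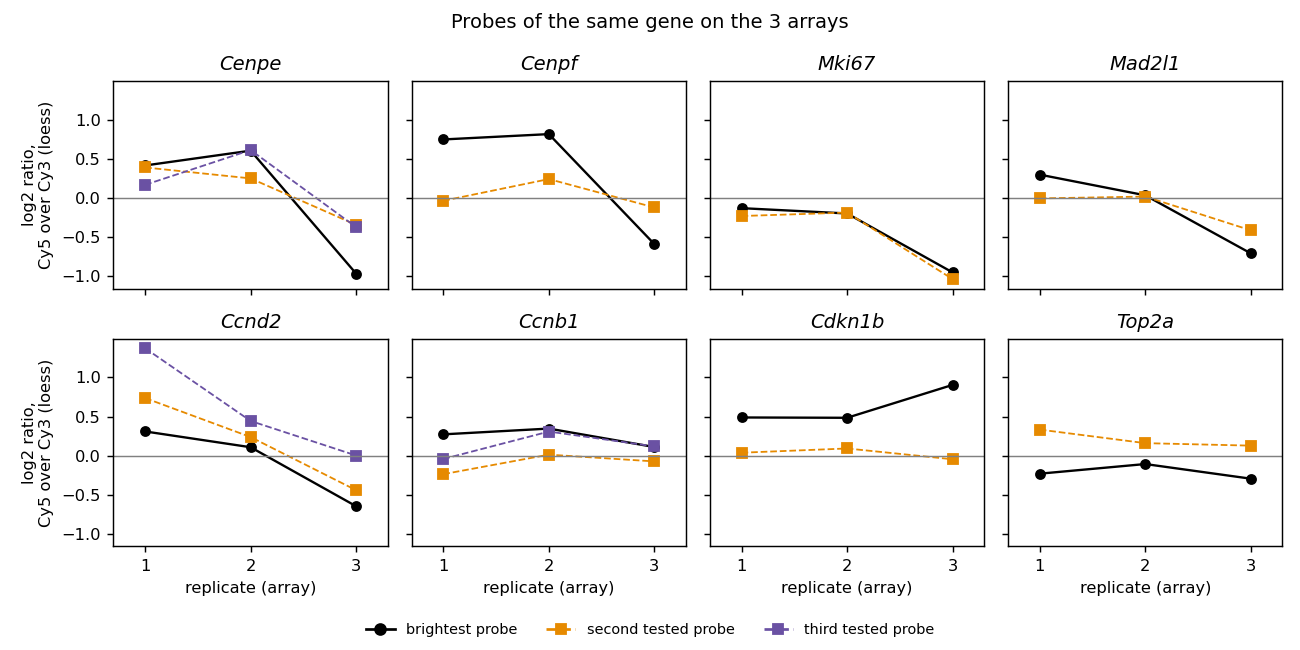
Log2 ratio of Cy5 over Cy3 after loess on each array for the tested probes of 8 genes, with the brightest probe in black and the others in colour (replicates are joined only to show which points belong to a probe). Each probe of Cenpe, Mki67, Mad2l1 and Ccnd2 has its lowest value on replicate 3, though 1 Ccnd2 probe stands at 0.0038 there. Those of Cdkn1b and Top2a lie apart on all arrays.

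Repeated spots give the spread within an array. For Ccnd1, Cdkn1a, Cdkn1b, E2f1 and Pcna, 1 probe each was printed at 10 spots, and the SD of the software's log2 ratio over these spots had a median of 0.10, 0.14 and 0.056 on replicates 1, 2 and 3. The highest was 0.20, for the dim Cdkn1b probe on replicate 1. These SDs leave out the spread between pools of hearts.

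Further genes of the same machinery were measured too. Of 146 other genes in 3 lists written from general knowledge, 145 were tested and 0 were called in either direction. Before adjustment, 10 had a p under 0.05 and more signal in Cy5 (6.90%) and 15 had less (10.3%), beside 10.6% and 4.15% of all genes. The 42 origin and fork genes had a median log2 ratio of -0.043, the 34 tested genes of the RB, E2F and CDK list 0.082, and the 69 genes of the kinetochore, checkpoint and chromosome segregation list 0.018, beside 0.028 for all genes. On replicate 3 the last list stood at -0.071, after 0.0054 and 0.0044 on replicates 1 and 2, a smaller step than that of the 27 G2/M members. The highest means were those of Cks2, a CDK-binding protein (0.45; limma adjusted p of 0.235), Prim1, a subunit of primase (0.43; 0.187), and Gins4, a subunit of the replicative helicase (0.41; 0.257). The lowest were Chaf1b, a chromatin assembly factor (-0.44; 0.174), Uhrf1, which maintains DNA methylation (-0.41; 0.303), and Orc5, a subunit of the origin recognition complex (-0.40; 0.357). Prim1 and Chaf1b had the same sign on all 3 arrays, and Orc5 did not, at -0.72, -0.50 and 0.032.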

How the data were processed

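RNA of embryonic hearts was measured on 3 Agilent mouse arrays of 60-base probes, read in 2 colours. Per the file headers, the deposited intensities were made with Feature Extraction 9.1.3.1 on a G2505B scanner (replicate 1, protocol edited to local background) and 10.7.3.1 on a G2505C scanner (replicates 2 and 3); the submitters' processing notes name version 9.5. The deposited log10 ratio is Cy5 over Cy3 of the authors' processed intensities, and the deposited series table equals it. Median background-subtracted signals of gene spots ranged from 130 to 335 in Cy5 and from 89.6 to 340 in Cy3, and 63.9% to 93.2% of spots were well above background. The number of arrays limits the precision.

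Log2 ratios were computed here with limma 3.58.1 in R 4.3.3: normexp on mean signal and median local background (offset 50), loess within each array, control spots at weight 0, non-uniform spots left out and spots of a probe averaged. A probe was tested if well above background in Cy5 or in Cy3 on all arrays where it had a value, at least 2. Ratios were tested against 0 (lmFit, eBayes, two-sided) with Benjamini-Hochberg adjustment over all tested probes (threshold 0.05). The test was checked on simulated data with shifts larger than the mean of any member. The check therefore does not cover changes of the sizes seen here. Each gene is represented by its brightest tested probe, that with the highest log2 intensity averaged over both channels and all arrays after background correction and loess (for Ccnd2 another probe was nearly as bright). Values on every array are given for the 6 highest and 3 lowest means of each class not saturated in both channels, for Mki67, Top2a, Pcna, Ccnd1, Cdk1, Cdkn1a and Cdkn1b, and for the 4 genes whose probes differ most; Cenpe, Rrm2, Plk1, Mad2l1 and other members were named after their values were seen. Probe positions are those of the files, and exon or intron was not assigned here. Pools are the replicates, so p-values measure the spread between 3 pairs of pools. The members and lists were chosen with earlier results of these data known. Alternatives covered background correction, normalization, filters, tests, software version, base content, probe choice and replicates.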

Additional observations from a re-analysis of the deposited data

How the results depend on the processing

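The count of members called was 0 in each direction under the 13 alternatives that keep all 3 arrays, the methods' t-test among them, and 0 without replicate 1 or 2; it ranged from 0 to 2 higher and from 0 to 1 lower without 1 replicate. Shares of all tested genes are given above for the main setting only, so the counts of members in this section are not set against genes in general. At an unadjusted p under 0.05, the software's processed signals and the series table gave 0 higher and 0 lower members, and median centring and base content correction gave 1 higher. Without 1 replicate these counts ranged from 1 to 8 higher (8 without replicate 3) and from 3 to 7 lower (3 without replicate 1 or 2). The G1/S median (-0.022) moved to -0.11 with processed signals, the series table and median centring. Without 1 replicate it ranged from -0.097 (without replicate 1) to 0.014. The G2/M median (0.0087) moved to -0.093 under either form of the software ratios, to -0.074 with median centring and to -0.068 with scaling between arrays, each by less than its spread between arrays (SD 0.11), which is wider than that of G1/S (SD 0.038). Without 1 replicate, the difference of the mean-ratio medians (0.031) ranged from -0.080 (without replicate 2) to 0.033. It was 0.051 with base content correction, and it also turned below 0 with scaling between arrays (-0.044) and with the software version as a block (-0.020). Loess ratios in place of the software's gave 2 members higher and 1 lower by the 1.2-fold rule, and without 1 replicate 0 to 2 (2 without replicate 3) and 0 to 5 (5 without replicate 2). Of the 24 genes named by rule, 18 kept their sign under all alternatives, and Ccna2, Ccnd2, Cdk2, Cdkn1a, Rrm1 and Top2a turned in 15 of 384 values. Part of these values could not turn: the methods' t-test and the filters on dim probes used the same ratios as the main fit. The series table repeats the software's processed signals. The 15 of 384 is therefore no measure of how stable the signs are. The lowest adjusted p of Cdkn1b was 0.0524 and the highest 0.735. The causes were not tested. Saturated spots limit Gmnn and Birc5, and on 1 array each Mcm6 and Pcna, and 7 member probes were too dim to be tested. No paired analysis was possible because each array already is the ratio of its 2 pools and there is 1 group of arrays.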
